A study of Mus musculus with 7 samples.

Results

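Regulators and matrix genes of tendon, cartilage and bone were followed across 2 tissues of the mouse forelimb: Scx, Mkx, Tnmd, Tnc, Sox5, Sox6, Sox9, Acan, Matn1 and Runx2. They were taken by name, as every non-control spot of the array that carries 1 of these gene names, which gave 10 genes of 36373 names on the array, with 14 probes and 32 spots. Of these, 8 probes of 7 genes were well above background on at least 3 of 7 arrays and entered the fit. The other 6 probes (Tnmd, Matn1, both of Runx2 and 2 of Sox5) are described by their signals.

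RNA came from forelimbs of C57/Bl6 embryos at embryonic day 11.5, with no mutant allele or treatment named for either group. The microdissected tissue was the apical ectodermal ridge (AER), a rim of thick epithelium at the distal edge of the limb bud, measured on 3 arrays. Surface ectoderm of the posterior limb served as the control on 4 arrays. Each array held a pool of 2 to 3 mice, so replicates are pools. Ectoderm replicates 2 and 4 share 1 number in the names of their files and were counted as 2 replicates, and whether they are separate pools was not tested. All arrays lay on 1 slide in a single scan. Each array read 1 colour (Cy3), with 75 ng of RNA labelled.

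As background, tendon cells arise from limb mesenchyme, which lies beneath the ectoderm. SCX, a basic helix-loop-helix factor, marks tendon progenitors from early on, MKX is a homeobox factor of tendon, and TNMD is a membrane protein of maturing tendon cells. TNC, tenascin-C, is a large matrix glycoprotein of tendon, ligament and other remodelling tissue. Cartilage depends on SOX9, which acts with the paired factors SOX5 and SOX6 on genes such as Acan, the main proteoglycan of cartilage, and Matn1, a matrix bridging protein. RUNX2 drives the formation of bone cells and the maturation of cartilage cells. Limb bud cells that express both Scx and Sox9 are known progenitors of the junction between tendon and skeleton.

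Sox5, Tnc and Runx2 have more than 1 probe, and the sequences of these probes are shown because the probes of 1 gene did not read alike. The Sox5 sequences are the first 30 bases of 60, with each run of GGA in capitals. In the upstream Runx2 probe the capitals mark an ATG at base 13, where the open reading frame of the isoform from the distal promoter begins. All are given 5′ to 3′ as the array's deposited annotation holds them.
Sox5 repeat probe: GGAGGAGGAGGAagaGGAGGAGGAGGAaga
Sox5 RefSeq probe: ttacaagcaaaaacgtcatcaagaagaaga
Sox5 testis cDNA probe: ctgggcccatgggcaaattcaatcagatgc
Tnc junction probe: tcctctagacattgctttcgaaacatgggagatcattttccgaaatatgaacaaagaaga
Tnc second probe: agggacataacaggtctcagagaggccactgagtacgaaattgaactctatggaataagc
Runx2 upstream probe: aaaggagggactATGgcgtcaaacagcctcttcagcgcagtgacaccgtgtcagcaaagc
Runx2 downstream probe: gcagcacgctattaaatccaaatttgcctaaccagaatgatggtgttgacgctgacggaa

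The arrays had similar shares of spots above background but unlike weights. Limma's array weights, which fall as an array strays from its group, were 0.71, 0.25 and 1.17 on AER replicates 1 to 3. On ectoderm replicates 1 to 4 they were 1.39, 1.74, 0.78 and 2.51. The main fit used no weights. The 75th percentile of the processed signal was 341 to 563 units in AER and 257 to 444 units in ectoderm, 48.7% to 55.2% of spots were well above background, and 0 spots were saturated. Values below are log2 signals relative to that percentile of the same array, or processed signals in scanner units where said so. In the whole fit, 3266 of 20826 genes (15.7%) differed between the groups at an adjusted p under 0.05, 1802 of them lower (8.65%) and 1464 higher (7.03%) in AER (limma's moderated test, two-sided, Benjamini-Hochberg over all genes). Higher genes made up 44.8% of the differing genes, and 57.4% with the percentile restricted to probes detected on every array.

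Both dissections matched their labels in part. Of 15 measured AER markers 14 were higher in AER, led by Fgf8, Fgf4 and Rspo2, and 0 were lower. Of 20 pan-epithelial markers 18 were higher in AER and 0 lower, led by St14, Tfap2c and Ovol1. On the ectoderm arrays 19 or 20 of these 20 were still above background. The summed pan-epithelial level was 69.6 to 108 times the array's 75th percentile in ectoderm and 203 to 229 times in AER. All 15 measured muscle lineage markers were lower in AER, led by Actc1, Myod1 and Myl1. Their summed level was 2.53 to 6.95 times the array's 75th percentile in AER and 94.2 to 224 times in ectoderm, with 4, 12 and 13 of the 15 above background on AER replicates 1 to 3 and 14 or 15 on the ectoderm arrays. Myod1 and Myog, which define the skeletal muscle lineage and are not known as genes of surface ectoderm, were above background on all 4 ectoderm arrays, and on 1 and 2 of the 3 AER arrays. Of 20 limb mesenchyme markers 12 were lower in AER, led by Osr1, Meox2 and Osr2, and 2 were higher, Hoxd13 and Hoxa13. The call of Hoxa13 was lost without any 1 array other than ectoderm replicate 3 (adjusted p from 0.0777 to 0.101). The summed mesenchyme level was 296 to 366 in AER and 510 to 669 in ectoderm. In pooled tissue, fewer cells of a type and less RNA per cell cannot be told apart.

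Of the 7 genes in the fit, 4 were lower in AER than in posterior ectoderm (Scx, Mkx, Tnc and Sox9) and 0 were higher, against 8.65% and 7.03% of all genes. Centring each array on the pan-epithelial markers instead, which lowers every difference by 1.93 and moves the median of all genes to -2.01, called all 7 lower, as it did 96.2% of all genes. At an unadjusted p under 0.05 the counts were 4 lower and 1 higher, the latter being Sox6, against 17.5% and 13.1% of all genes. The median difference of the 7 genes was -2.12, against -0.08 for all genes tested. For those 4 genes every AER array lay below every ectoderm array, as it did for 17.8% of all genes. The same arrays had the lower muscle and mesenchyme levels given above, and their part in these differences was not tested.

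**Figure D1:**
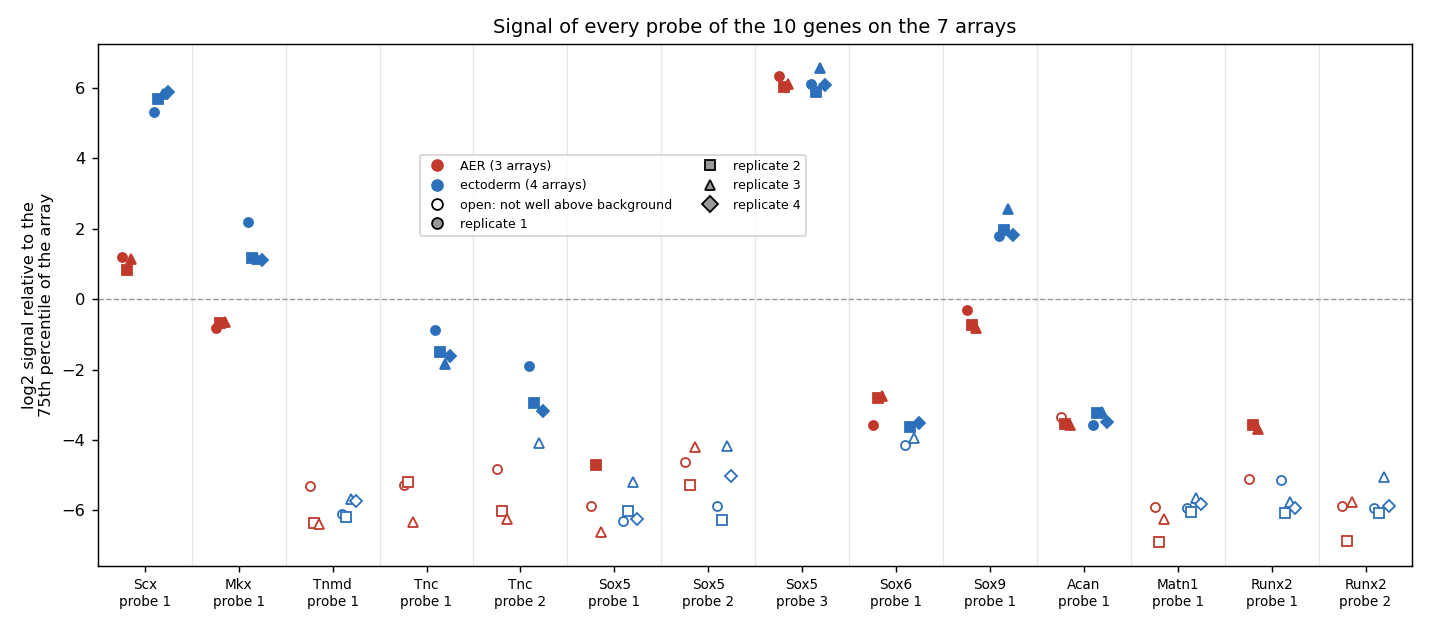
Signal of all 14 probes, as log2 relative to the 75th percentile of the same array (y axis, dashed line at 0), with 1 point per array, AER in red and ectoderm in blue. Open symbols were not well above background. AER points lie below all ectoderm points for Scx, Mkx, both Tnc probes and Sox9, while probe 3 of Sox5 is bright on all 7 arrays and its other probes are near background. Sox5 probes 1 to 3 are the RefSeq, testis cDNA and repeat probes, Tnc probe 1 is the junction probe, and Runx2 probes 1 and 2 are the downstream and upstream probes.

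Among the tendon transcription factors, Scx showed the largest fitted difference of the 7 genes in the fit, beside Tnc, whose fold is only an approximate lower bound. Its probe lies at chr15:76289708-76289767 (mm9, plus strand). The processed signal was 789, 1008 and 860.5 units on AER replicates 1 to 3 and 16478, 23005, 14583 and 20263 units on ectoderm replicates 1 to 4. On the log2 scale the AER arrays were at 1.21, 0.84 and 1.13, and the ectoderm arrays at 5.33, 5.70, 5.83 and 5.88. All 7 arrays were well above background and the groups were far apart, with the AER arrays still above their own 75th percentile. Scx was 24.6-fold lower in AER (95% CI 18.4 to 32.9; log2 difference -4.62; adjusted p = 6.83e-06, limma, 3 AER and 4 ectoderm arrays).

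Mkx was lower in AER too, by a smaller amount. Its probe lies at chr18:6935183-6935242 (mm9, minus strand). The processed signal was 192, 353 and 249 units on the AER arrays and 1870, 996, 566 and 749 units on the ectoderm arrays. The log2 values were -0.83, -0.67 and -0.66 in AER and 2.19, 1.17, 1.14 and 1.12 in ectoderm. Ectoderm replicate 1 stood above the other ectoderm arrays, which lay close together. Mkx was 4.36-fold lower in AER (95% CI 2.84 to 6.69; log2 difference -2.12; adjusted p = 0.00107, limma), and without ectoderm replicate 1 the difference was -1.86 (adjusted p = 0.000331). Within slide row 1, where AER replicate 1 was the sole AER array, it was -2.33 with adjusted p = 0.0867, and within row 2, where ectoderm replicate 4 was the sole ectoderm array, it was -1.78 with adjusted p = 0.0188. In both rows the lone array was assumed to vary like the others.

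The difference of Scx between the groups exceeded that of Sox9 by -1.97 on the log2 scale and that of Mkx by -2.50. Taken within each array, the Scx to Sox9 ratio was lower on all 3 AER arrays than on all 4 ectoderm arrays (exact permutation test over the 35 splits, two-sided p = 0.0286, the smallest these arrays allow, and 0.0857 adjusted over 3 ratios). The Scx to Mkx ratio was also lower on all 3 AER arrays than on all 4 ectoderm arrays (exact permutation p = 0.0571, adjusted 0.0857). The Mkx to Sox9 ratio differed by 0.53, with an exact permutation p of 0.314. The 3 ratios were chosen after the values were seen, and none passed 0.05 after adjustment. With 1 ratio alone at the smallest possible p, that ratio adjusts to 0.0857, so it could pass only beside another as small. Since the ratios were picked from these values, no conclusion is drawn from their p-values.

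Tnmd, the marker of maturing tendon cells, was not well above background on any array. Its probe, at chrX:130397487-130397546 (mm9, plus strand), was printed 10 times, and 8 to 10 usable spots per array gave 0 spots above background. The mean signal was 8.64, 6.93 and 4.74 units on AER arrays and 5.97, 6.13, 4.99 and 6.48 units on ectoderm arrays. In a fit of all 55681 probes the difference was -0.08 (95% CI -0.77 to 0.61; adjusted p = 0.906, limma). A level of Tnmd was not detectable with this probe in either tissue, and nothing is shown about a difference below background.

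Tnc was measured on the ectoderm arrays and was at background on all 3 AER arrays. Its junction probe spans chr4:63674248-63675011 (mm9, minus strand), which is 764 bases for a 60-base probe and so crosses a splice junction. The signal was 8.73, 15.3 and 4.92 units on AER arrays, none above background, and 223, 158, 72.2 and 112 units on ectoderm arrays, all above it. With the AER arrays set to the dimmest signal called above background on each array, Tnc was at least 9.49-fold lower in AER. This bound is approximate, because that signal is not a strict detection limit. On AER replicate 1 it was 15.0 units, while Acan at 33.6 units was not above background there. The fitted difference was -4.15 (adjusted p = 7.56e-05, limma), and -1.45 under normexp, a background correction whose offset shrinks differences of dim probes by construction.

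The second Tnc probe lies at chr4:63643728-63643787 (mm9, minus strand) and gave the same direction at lower signals. It read 12.1, 8.64 and 5.22 units on AER arrays and 109, 57.9, 15.0 and 38.3 units on ectoderm arrays. None of the AER arrays and 3 of 4 ectoderm arrays were above background, with ectoderm replicate 3 below it, and the groups did not overlap, as for 16.8% of probes in this direction. Tnc was at least 3.24-fold lower in AER by this probe (fitted difference -2.66; adjusted p = 0.0085 over 28280 probes, limma), and -0.87 under normexp. In that fit 15.0% of probes differed, 8.03% lower in AER. Ectoderm replicate 1 was the highest array for both Tnc probes and for Mkx.

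**Figure D2:**
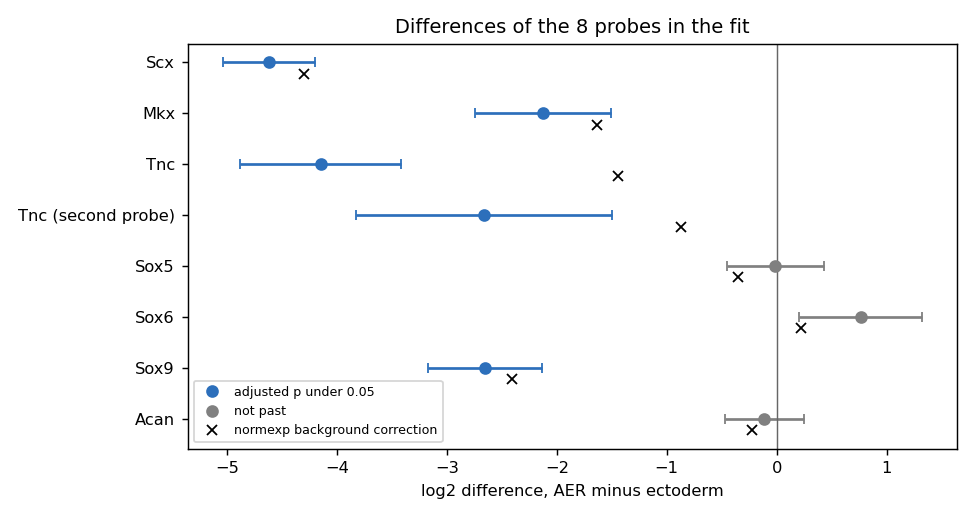
Log2 difference between AER and ectoderm (x axis) of the 8 probes in the fit, with 95% confidence intervals, and crosses for the same difference under the normexp background correction. The intervals of Scx, Mkx, both Tnc probes and Sox9 lie below 0, those of Sox5 and Acan include 0, and Sox6 lies above 0 without passing the adjusted threshold. The crosses of the dim Tnc probes are much nearer to 0.

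Among the SOX genes, Sox9 was clearly lower in AER, while the Sox5 and Sox6 probes were not. The Sox9 probe lies at chr11:112648809-112648868 (mm9, plus strand) and was printed 10 times. Its mean signal was 274, 338 and 224 units on AER arrays and 1422, 1739, 1509 and 1216 units on ectoderm arrays. The log2 values were -0.32, -0.73 and -0.81 in AER and 1.80, 1.97, 2.56 and 1.82 in ectoderm. All usable spots were above background, and the highest AER spot read 465 units and the lowest ectoderm spot 1145 units. These signals are not scaled between arrays, and the spots of an array are reprints of 1 probe, not replicates of a tissue. Sox9 was 6.30-fold lower in AER (95% CI 4.40 to 9.01; log2 difference -2.65; adjusted p = 0.00012, limma).

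**Figure D3:**
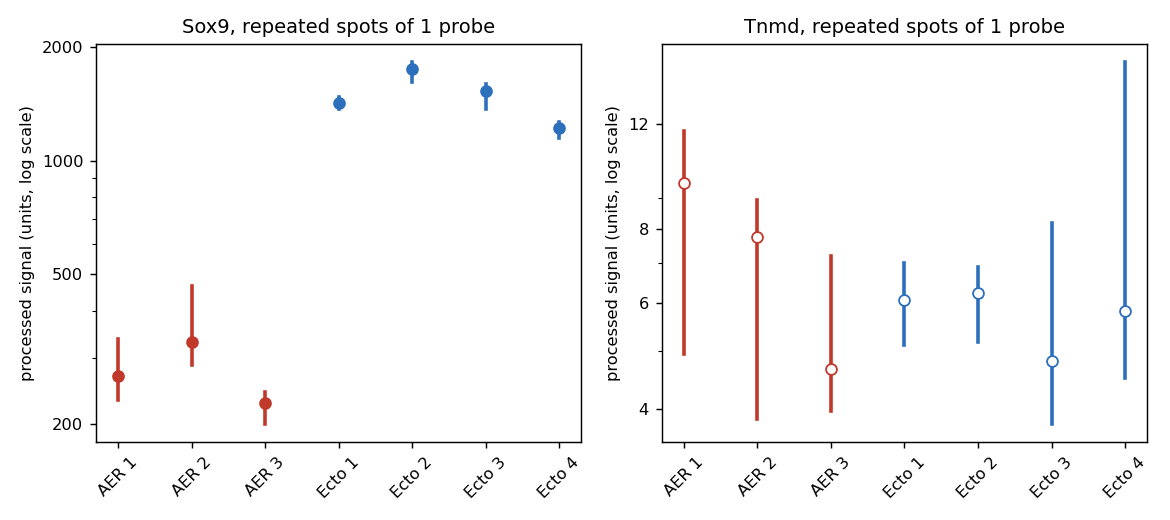
Processed signal (y axis, log scale) of the probes of Sox9 and Tnmd, each printed 10 times per array, with the median as a point and the range over usable spots as a line, AER in red and ectoderm in blue. Filled points had spots above background. The Sox9 ranges of the groups are apart, from 201 to 465 units in AER and from 1145 to 1825 units in ectoderm, and the Tnmd ranges overlap, at 15.2 units or less, with 0 spots above background.

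Sox6, the partner of Sox5 in chondrocytes, was dim in both groups. Its probe lies at chr7:122615418-122615477 (mm9, minus strand). The signal was 28.7, 79.8 and 58.8 units on AER arrays, all above background, and 23.3, 36.2, 16.7 and 29.9 units on ectoderm arrays, of which replicates 2 and 4 were above it. On the log2 scale AER replicate 1, at -3.57, overlapped the ectoderm arrays, whose highest values were -3.53 and -3.62, and the other AER arrays were at -2.82 and -2.74. The log2 difference was 0.76 (95% CI 0.20 to 1.33) and did not pass (adjusted p = 0.0722, limma). It passed without AER replicate 1 (1.03, adjusted p = 0.0197) and with the percentile restricted to probes detected on every array (0.87, adjusted p = 0.0469), and it was 0.23 under normexp (adjusted p = 0.376). Epithelial centring turned Sox6 to -1.17, which is above the median of all genes under that scaling.

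The value of Sox5 in the fit comes from the repeat probe and cannot be read as the level of Sox5. That probe consists of 35 G and 25 A, with GGA at 16 positions, and the annotation places 27 of its bases at chr6:143776945-143776971 (mm9, minus strand). Its signal was 27568, 36497 and 27383 units on AER arrays and 28599, 26309, 24489 and 23525 units on ectoderm arrays, and the groups overlapped. The log2 difference was -0.01 (95% CI -0.45 to 0.43; adjusted p = 0.976, limma). The array holds 23 probes made of A and G alone, and 22 of them (95.7%) were above background on all 7 arrays, against 43.0% of all 55681 probes. They are annotated to unrelated genes such as Vash1 and Cplx2, and the 2 brightest of these were the probes of Vash1, at mean log2 signals of 6.43 and 6.42.

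The other Sox5 probes were at or near background. The RefSeq probe, at chr6:143781520-143781579 (mm9, minus strand), read 5.77, 21.4 and 4.02 units on AER arrays and 5.17, 6.85, 6.97 and 4.53 units on ectoderm arrays, with AER replicate 2 alone above background. The testis cDNA probe, at chr6:143787982-143788041 (mm9, minus strand), read 13.8, 14.5 and 21.6 units on AER arrays and 5.71 to 14.1 units on ectoderm arrays, none above background. In the fit of all probes their differences were 0.21 (95% CI -0.84 to 1.25) and 0.64 (95% CI -0.51 to 1.78), with adjusted p = 0.836 and 0.486 (limma). Without the repeat probe Sox5 left the fit, and the count of lower genes was 4 of 6.

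**Figure D4:**
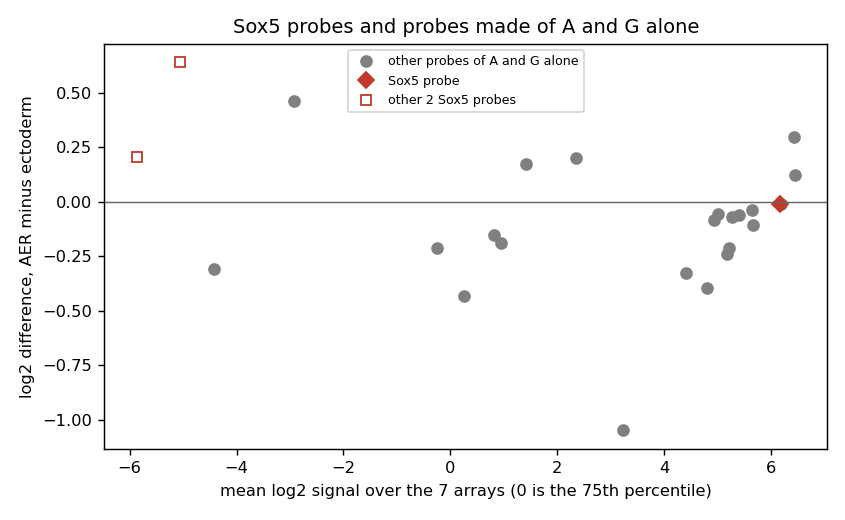
Log2 difference between AER and ectoderm (y axis) against the mean log2 signal over the 7 arrays (x axis) for the 23 probes made of A and G alone, with the Sox5 repeat probe as a red diamond, and the other 2 Sox5 probes as open squares. The repeat probe lies at 6.17 among the brightest of the A and G probes with a difference of -0.01, and the other Sox5 probes lie below -5.

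Of the cartilage matrix genes, Acan was low in both groups and Matn1 was at background. The Acan probe lies at chr7:86259741-86259801 (mm9, plus strand). Its signal was 33.6, 48.6 and 32.8 units on AER arrays, with replicates 2 and 3 above background, and 34.4, 46.9, 27.9 and 30.9 units on ectoderm arrays, all above it. The groups overlapped, and the log2 difference was -0.11 (95% CI -0.47 to 0.25; adjusted p = 0.659, limma). That interval is nearer 0 than the Sox9 difference, but it holds only for this scaling and for signals this near background. Under epithelial centring the Acan difference was -2.04, where the median of all genes was -2.01. Matn1, at chr4:130511217-130511276 (mm9, plus strand), read 4.72 to 5.73 units on AER arrays and 5.15 to 6.70 units on ectoderm arrays and was above background on 0 of 7 arrays. Its difference in the fit of all probes was -0.49 (95% CI -1.09 to 0.12; adjusted p = 0.368, limma).

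Runx2, the regulator of bone formation, was above background on 2 AER arrays by its downstream probe. That probe, at chr17:44744925-44744984 (mm9, minus strand), read 9.94, 47.5 and 30.7 units on AER arrays, with replicates 2 and 3 above background, and 11.6, 6.64, 4.69 and 5.70 units on ectoderm arrays, none above it. Relative to the percentile, AER replicate 1 at -5.10 was barely above the highest ectoderm array at -5.14. In the fit of all probes the difference was 1.61 (95% CI 0.69 to 2.53), with adjusted p = 0.0611 (limma), so it did not pass. Under normexp the difference of this dim probe was 0.21. The upstream probe, at chr17:44951128-44951187 (mm9, minus strand), which covers the first codon of the isoform from the distal promoter, read 4.82 to 7.25 units in AER and 5.94 to 7.81 units in ectoderm and was above background on 0 of 7 arrays. As background, the isoform from the proximal promoter starts in another exon and lacks the upstream sequence, while the downstream sequence codes for a stretch near the C-terminus.

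Other genes of the same tissues place these values. Of 28 other tendon and ligament genes 24 were in the fit, and 16 were lower in AER, 1 was higher and 7 did not pass, with a median of -2.01. The lower and higher shares were 66.7% and 4.17%, against 8.65% and 7.03% of all genes. Kera, keratocan, was at least 383-fold lower in AER and at background on all AER arrays, and Lum and Dcn, further small leucine-rich proteoglycans of collagen fibrils, were lower by log2 differences of -8.09 and -7.15 (adjusted p from 2.37e-05 to 3.18e-05, limma). These were larger differences than that of Scx. Under normexp the 3 differences were -6.29, -6.86 and -5.28. The gene that was higher was Col5a2, a collagen V chain (0.86, adjusted p = 0.0411), a call lost without AER replicate 2 or 3 or ectoderm replicate 1, 3 or 4 (adjusted p from 0.0584 to 0.11) and turned to -1.07 under epithelial centring. On single arrays the summed level of the list was 217 to 222 times the 75th percentile in AER and 379 to 647 times in ectoderm.

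Other cartilage genes were mostly without a call, though their share of lower calls was above that of all genes. Of 29 such genes 20 were in the fit, and 5 were lower in AER, 1 was higher and 14 did not pass, with a median of -0.22. The lower and higher shares were 25% and 5%, against 8.65% and 7.03% of all genes. Col9a2, a chain of cartilage collagen IX, was lower by a log2 difference of -3.32 (adjusted p = 3.34e-05, limma). Comp, a cartilage and tendon matrix protein, was at least 7.51-fold lower (adjusted p = 7.05e-05), and Epyc, a proteoglycan of growth cartilage, at least 2.90-fold lower (adjusted p = 0.00293), both at background on all AER arrays. Under normexp these differences were -2.27, -1.50 and -0.98. Hapln1, the link protein that binds aggrecan to hyaluronan, was the higher gene (0.94, adjusted p = 0.0201), but not without ectoderm replicate 1 or 4 (adjusted p = 0.0556 and 0.0626), and it was -0.99 under epithelial centring. Col2a1, the main collagen of cartilage and a direct target of SOX9, differed by 0.09 (adjusted p = 0.888), with -0.35 under normexp and -1.84 under epithelial centring. Hapln1, Col2a1, Col5a2 and Sp7 below were named after their values were seen.

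Bone genes went in both directions. Of 14 genes 8 were in the fit, with 3 higher in AER, 1 lower and 4 not past the test. The higher and lower shares were 37.5% and 12.5%, against 7.03% and 8.65% of all genes. Their median was 0.60, with 0.19 under normexp and -1.33 under epithelial centring. Alpl, tissue-nonspecific alkaline phosphatase, was higher by 1.80 (adjusted p = 0.00309, limma; -0.13 under epithelial centring). Sp7, the bone factor that acts downstream of RUNX2, was higher by 1.24 (adjusted p = 0.0453; 0.43 under normexp, -0.69 under epithelial centring), and it passed with ectoderm replicate 3 left out but not with any other array left out (adjusted p from 0.0633 to 0.117). Twist2, a mesenchymal inhibitor of bone formation, was lower by a log2 difference of -2.63 (adjusted p = 0.000152).

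Close relatives of the 10 genes were divided. Of 18 relatives 14 were in the fit, with 4 lower in AER, 2 higher and 8 not past the test. The lower and higher shares were 28.6% and 14.3%, against 8.65% and 7.03% of all genes. Their median was -1.41, or -1.30 where genes with a bound take it, and -0.71 under normexp. Sox8, the nearest relative of Sox9 in the E group of SOX factors with Sox10, was at least 6.99-fold lower in AER (adjusted p = 0.000577, limma; -1.14 on the log2 scale under normexp) and at background on all AER arrays. Tcf15, the relative of Scx known as paraxis, was lower by a log2 difference of -2.46 (adjusted p = 5.95e-05), and Ncan, a relative of Acan, by -1.54 (adjusted p = 0.00845; -0.68 under normexp). Runx1, a relative of Runx2, and Sox13, the third member of the SOX group of Sox5 and Sox6, were higher by 1.19 and 0.54, named after their values were seen. Both turned under epithelial centring, to -0.74 and -1.39. Runx1 lost the call without AER replicate 1 or 3 or ectoderm replicate 1 or 3 (adjusted p from 0.0593 to 0.0811), and Sox13 without AER replicate 1 or 3 or any ectoderm array (adjusted p from 0.0543 to 0.0921).

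**Figure D5:**
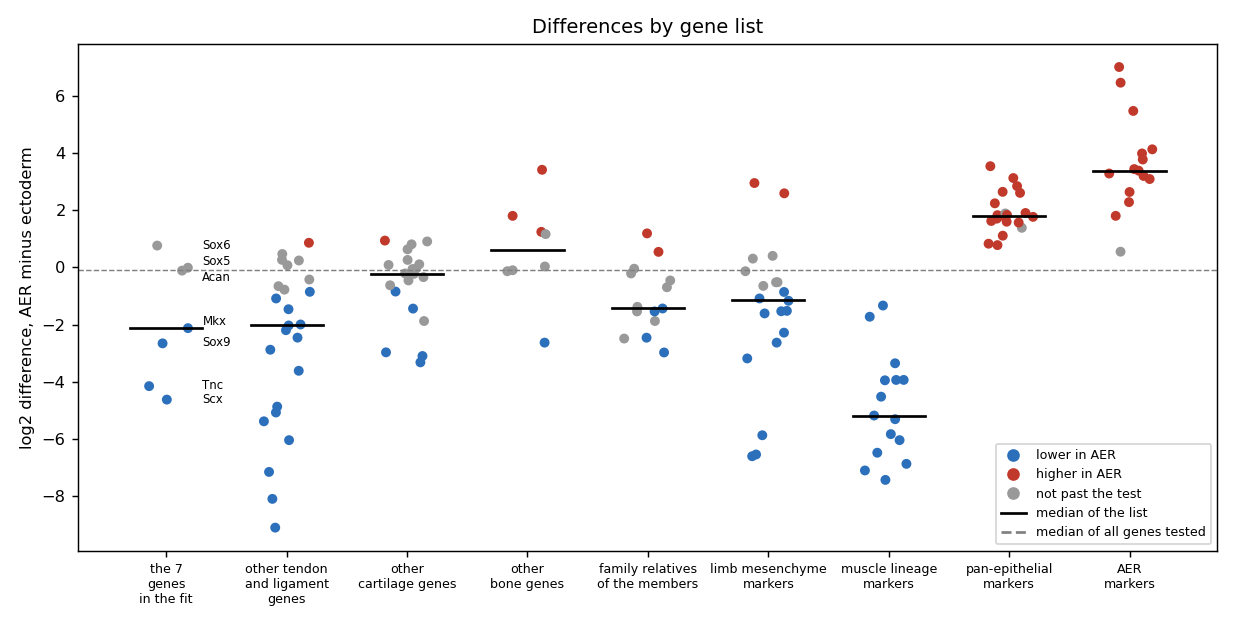
Log2 difference between AER and ectoderm (y axis) of each gene in the fit, by list, with the list median as a black bar and the median of all genes as a dashed line. Blue genes were lower and red genes higher in AER. The medians are -2.12 for the 7 genes, -2.01 for other tendon genes, -0.22 for other cartilage genes, 0.60 for bone genes and -5.18 for muscle lineage markers.

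Genes with the most similar pattern over the 7 arrays were found by Pearson correlation with each of the 7 genes, among 14122 genes with a RefSeq symbol. With arrays in 2 groups, a high r for a gene that differs reflects mainly the shared difference, and no test is given. For Scx they were Rflna, Grtp1 and Ldhb (r = 0.997, 0.996 and 0.996), with log2 differences of -4.77, -1.48 and -1.19. Mkx was most like Plxna4, Cited1 and Met, which is also on the muscle list (r = 0.992, 0.991 and 0.990). For Tnc they were Lama2, Dusp26 and Abca8b (r = 0.997, 0.995 and 0.995). Sox9 was most like Hhex, Gfpt2 and Eno3 (r = 0.992, 0.992 and 0.991). Sox6 was most like Itgb5, Col4a6 and Fhdc1 (r = 0.985, 0.980 and 0.978). For Acan, whose groups overlapped, they were 2310068J16Rik, Acp1 and Efcab10 (r from 0.959 to 0.963), and for the Sox5 repeat probe Cdca5, Rims1 and Rap1gap2 (r from 0.968 to 0.987).

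Markers of other cell types that the dissections could hold were also counted. Of 12 endothelial markers 0 were higher and 1 was lower in AER, against 7.03% and 8.65% of all genes. The lower gene was Sox18 (-0.66), a call lost without ectoderm replicate 4 (adjusted p = 0.0555, limma). At an unadjusted p under 0.05 the endothelial counts were 1 higher and 1 lower, against 13.1% and 17.5% of all genes. Of 9 erythroid markers 0 differed (0 higher and 1 lower unadjusted, limma), and of 9 macrophage markers 0 differed (1 higher and 0 lower unadjusted). Of 7 neural crest, Schwann and melanoblast markers 1 was higher in AER and 0 were lower (2 and 1 unadjusted). The higher gene was Dct, with a fitted difference of 4.71 that rests on a dim group, since 1 of 4 ectoderm arrays was above background. The summed levels of the erythroid list overlapped, at 1206 to 1702 in AER and 1514 to 2050 in ectoderm, as did those of the endothelial and macrophage lists.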

How the data were processed

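Expression was measured on 1-colour Agilent arrays, 3 of AER and 4 of ectoderm. Per the file headers, the deposited processed signal is an intensity, background-subtracted and detrended by Feature Extraction (version 10.7.3.1). The deposited matrix holds the authors' log2 values, which normexp (offset 50) and quantile normalization of the scanner values matched to within 0.000108. The submitters' processing notes name limma. Probe positions are on mm9, per the file headers. No annotation of that build was used, so exons were not looked up.

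Control and outlier spots were dropped, spots of a probe were averaged on the log2 scale, and each array's 75th percentile was subtracted. Probes well above background on at least 3 arrays were kept (28280 of 55681), and a gene took its brightest kept probe. Groups were compared with limma 3.58.1 (lmFit, eBayes; R 4.3.3, data.table, version 1.17.8), tested on simulated data, with Benjamini-Hochberg adjustment over all genes and 0.05 as the threshold. The fit had 5 residual and 3.5 prior degrees of freedom. Where the lower group was at background on every array, the fold is an approximate bound ("at least"). It takes the dimmest signal called above background on each array, though brighter spots can also miss that call. Python 3.11.15 with pandas 2.3.3, numpy 2.4.6 and matplotlib 3.10.9 read the files and drew the plots.

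The 10 genes and the lists were chosen with earlier results of these data known. Named genes are all 10 genes, up to 3 called genes of each list with the largest difference, and for each of the 7 genes in the fit the 3 genes most like it. A gene that this rule takes is not reported here. The number of arrays limits the precision. Alternatives covered background correction, scaling, the authors' values, probe filters, blocks by slide row and replicate number, each array left out, and ectoderm replicates 2 and 4 averaged.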

Additional observations from a re-analysis of the deposited data

Results flagged for a closer look

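Mkx on ectoderm replicate 1 stood apart from the other ectoderm arrays. Its log2 signal there was 2.19, while the other ectoderm arrays lay between 1.12 and 1.17, and the gap made up 0.956 of the group's range, above Dixon's 95% critical value for 4 samples. Chance gives such a gap in about 1 of 20 groups, and 8 probes were examined. Ectoderm replicate 1 was also the highest array for both Tnc probes, without passing that value (0.644 and 0.472), and the lowest ectoderm array for Scx.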

How the results depend on the processing

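Scx, Tnc and Sox9 were lower in AER with an adjusted p under 0.05 under every alternative that could be fitted for them, with differences from -6.55 to -4.23, -6.08 to -1.36 and -4.59 to -2.38 (log2). Tnc could not be tested among probes above background on all 7 arrays. Mkx ranged from -4.05 to -1.62 and lost its call within slide row 1. Centring on pan-epithelial markers gave 20181 differing genes (20028 lower, 153 higher), called all 7 genes lower and turned Sox6 to -1.17. Within slide rows 1 and 2, with 653 and 1390 differing genes (414 and 843 lower, 239 and 547 higher), the lone array of a group was assumed to vary like the others. Leaving out 1 array gave 1179 to 1916 lower genes, 1020 to 1362 higher genes and 2199 to 3275 in all, with 1179 lower without ectoderm replicate 4. With ectoderm replicates 2 and 4 averaged, 2267 genes differed (1209 lower, 1058 higher), and Scx, Mkx, Tnc and Sox9 were still called lower. Of the 7 genes, 1 (Sox6) became a call above 0 with the percentile restricted to probes detected on every array, with the replicate block (0.86, adjusted p = 0.0477) and without AER replicate 1. The uncalled Sox5 repeat probe turned to 0.25 (quantile normalization), 0.094 (that percentile), 0.079 (array weights), 0.065 (slide row as a block) and 0.14 (within row 1), and lay between -0.10 and 0.12 with 1 array left out. It was 0.06 without AER replicate 2, 0.0079 without AER replicate 3 and 0.12 without ectoderm replicate 3. The cause was not tested. Whether AER and ectoderm samples of 1 number are paired was not settled. Deviations of same-numbered AER and ectoderm arrays correlated at -0.03, 0.19 and 0.13 over genes. Those of AER and ectoderm arrays of different number correlated at -0.26 to 0.18. With the replicate block 1303 genes were lower and 1141 higher. The array number limits these results. So do signals near background for Tnmd, Matn1, Runx2, Sox6, Acan, 2 Sox5 probes and, on the AER arrays, Tnc.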
